A study of Mus musculus with 9 samples.

Results

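The 9 genes described here, Ido1, Ido2, Tdo2, Kmo, Kynu, Haao, Qprt, Wars and Ahr, start tryptophan breakdown, carry it on to NAD, compete for the same amino acid or sense its products. They were taken by symbol from a table of 24493 genes, and all 9 were in it. RNA with a poly(A) tail was sequenced from cells of mouse pancreatic tumors, clone 6419c5, grown under the skin after implantation, on the C57BL/6 strain. The 3 groups of 3 samples were Usp22-KOA and Usp22-KOB, a pair of knockouts of the gene for the deubiquitinase USP22, and WT. All 9 samples came from this 1 clone and were described as late stage tumor cells. Neither the age of the animals, nor what A and B stand for, nor the way of parting tumor cells from the rest was stated by the submitters in the labels.

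The kynurenine pathway is the main route by which mammalian cells degrade tryptophan. IDO1, IDO2 and TDO2 open the indole ring, the product is hydrolysed to kynurenine, and KMO, KYNU, HAAO and QPRT lead from kynurenine towards NAD. IDO1 is induced by interferon-gamma in many cells and is known in tumors for depleting tryptophan and producing kynurenine, both of which restrain T cells. Kynurenine can bind the transcription factor AHR. WARS, the tryptophanyl-tRNA synthetase, loads the same amino acid onto its tRNA and is also induced by interferon-gamma.

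The members were selected on earlier results of these data, the TPM differences of the knockouts from WT, in which Ido1 stood among the largest rises. Their differences from WT are therefore a description, without a test, and tests of members are kept for Usp22-KOA against Usp22-KOB. Genes of the lists around the members are tested against WT as well. Those lists were chosen with earlier results known and their named genes ranked by adjusted p, so these p-values are descriptive too. Levels are in TPM, a length-scaled abundance that sums to 1000000 per library and can be compared between genes. Differences are of log2(TPM + 1), which understates the change of genes with low levels. A gene was tested if its mean over the 9 libraries was at least 1 TPM, which held for 13843 genes and for 5 of the 9 members (Ido1, Ido2, Kmo, Wars and Ahr). Ido2 and Kmo, with WT means of 0.460 and 0.941 TPM, passed this filter only through their levels in the knockouts. Calls are at a Benjamini-Hochberg adjusted p under 0.05 by limma, adjusted over all tested genes.

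TPM keeps no read depth, so precision rests on the spread between the 3 libraries of a group. No label ties a sample to a mouse of its own, and the p-values cover the spread among the samples as deposited, part or all of which may be technical. Usp22 stood at 8.46 to 10.1 TPM in Usp22-KOA, 11.8 to 14.9 TPM in Usp22-KOB and 54.5 to 56.4 TPM in WT. The summed level of 8 epithelial markers of pancreatic tumor cells, keratins among them, was 6319 to 7102 TPM in Usp22-KOA, 6958 to 8522 TPM in Usp22-KOB and 8380 to 8922 TPM in WT. Of these 8, 1 was called higher and 6 lower than WT in Usp22-KOA (all tested genes: 29.4% and 26.9%). In Usp22-KOB 0 were called higher and 4 lower (all tested genes: 18.7% and 18.4%). The cell adhesion gene Epcam, a defining marker of epithelium, was lower in both knockouts, at 37.6 ± 15.2 TPM in Usp22-KOA and at 31.3 ± 5.31 TPM in Usp22-KOB against 379 ± 18.4 TPM in WT (SD, n = 3 each). RNA of white blood cells, fibroblasts and vessels was present in all 9 libraries, and in bulk RNA fewer cells of a type and less RNA per cell cannot be told apart.

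Ido1 was abundant in Usp22-KOA, intermediate in Usp22-KOB and barely detected in WT. The gene lies on chromosome 8, 24584136 to 24597009 on the minus strand of GRCm38, and encodes indoleamine 2,3-dioxygenase 1. It stood at 204, 229 and 212 TPM in the Usp22-KOA libraries, at 35.9, 37.1 and 26.3 TPM in Usp22-KOB and at 2.05, 0.9997 and 0.198 TPM in WT. The 3 groups did not overlap, and the lowest Usp22-KOB library was above the highest WT library. Group means were 215 ± 12.8 TPM in Usp22-KOA, 33.1 ± 5.90 TPM in Usp22-KOB and 1.08 ± 0.931 TPM in WT (SD, n = 3 each). Ranked by level among all 24493 genes, Ido1 stood at place 606 to 705 in Usp22-KOA, 3849 to 5274 in Usp22-KOB and 12698 to 15954 in WT.

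The ratio of the mean Ido1 level to that of WT was 198 for Usp22-KOA and 30.6 for Usp22-KOB, both resting on WT libraries of at most 2.05 TPM. Without WT library 1 the ratio was 359 for Usp22-KOA and 55.3 for Usp22-KOB. On the log2(TPM + 1) scale the difference from WT was 6.80 ± 0.29 for Usp22-KOA and 4.12 ± 0.29 for Usp22-KOB (SE). These were place 5 and place 7 from the top among the 13843 tested genes. Both knockouts were set against the same 3 WT libraries.

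The knockouts themselves differed in Ido1. The mean in Usp22-KOA was 6.49 times that in Usp22-KOB, a log2 difference of 2.68 ± 0.29 (limma, Benjamini-Hochberg adjusted p = 8.56e-05). In this comparison 51.7% of all tested genes were called, and 3 of the 5 tested members were: Ido1, Wars and Ahr. A share of this kind sets no member apart from the other genes. These 3 calls held without each library in turn. The values of Usp22-KOA lay apart from those of Usp22-KOB for 58.3% of tested genes (31.3% higher, 27.1% lower). They lay apart from WT for 65.3% in Usp22-KOA (34.2% higher, 31.1% lower) and for 49.1% in Usp22-KOB (25.0% higher, 24.0% lower), and nothing is read from the separation of a member from WT.

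**Figure D1:**
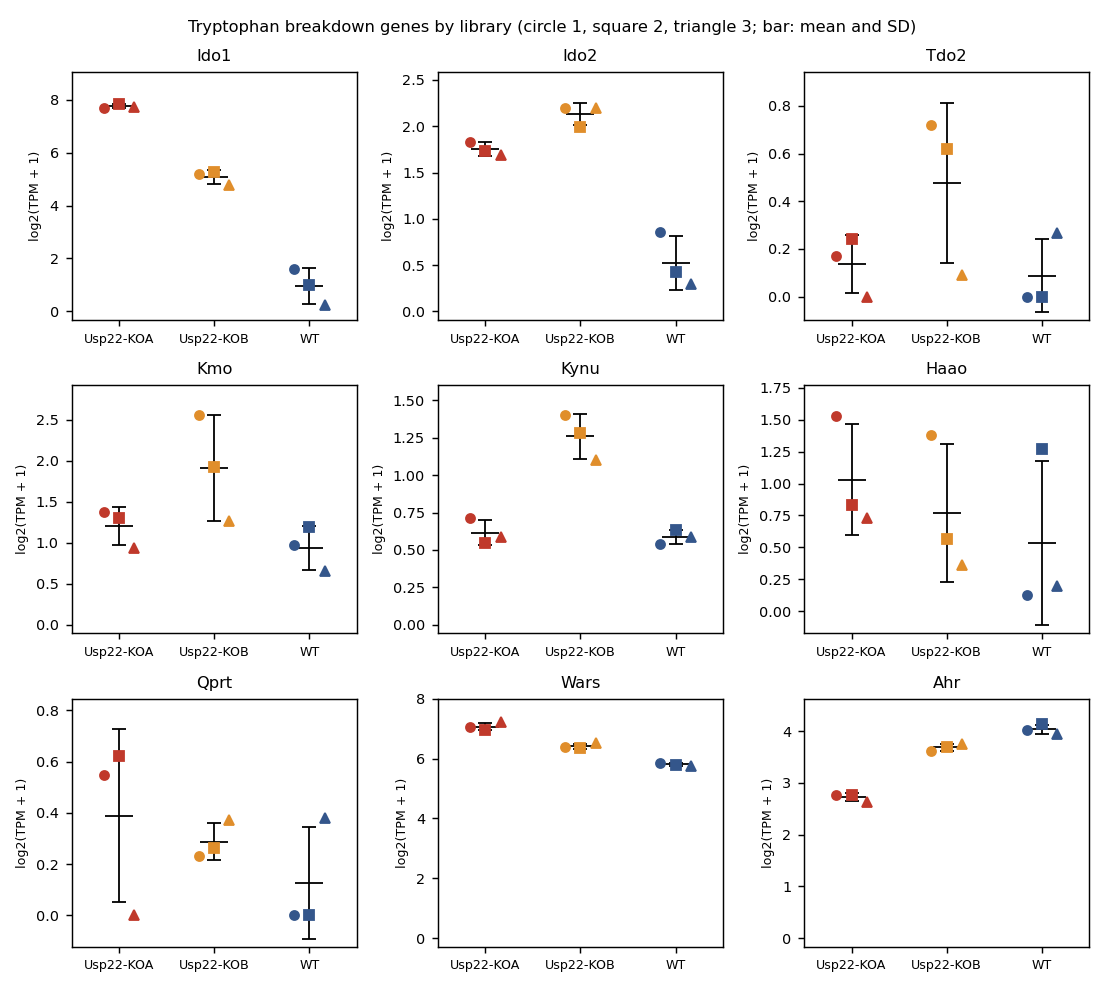
Level of each of the 9 genes in every library, as log2(TPM + 1) on the vertical axis, in Usp22-KOA, Usp22-KOB and WT from left to right. Symbols mark the library number, and the black bars are the group mean and SD (n = 3). The 3 groups of Ido1 lie apart, at mean levels of 215, 33.1 and 1.08 TPM, Wars follows the same order, and Ahr runs in the opposite order. Tdo2, Haao and Qprt overlap between groups.

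Ido2, the close relative of Ido1 and a weaker tryptophan dioxygenase, lies next to it on chromosome 8 (24531892 to 24576333, minus strand), with 7802 bases between the annotated genes. Its levels were low everywhere. They were 2.56, 2.32 and 2.22 TPM across Usp22-KOA, 3.60, 2.98 and 3.58 TPM in Usp22-KOB, and 0.809, 0.348 and 0.224 TPM in WT. All 6 knockout libraries were above the 3 WT libraries, and the order of the knockouts was the reverse of that of Ido1. The difference from WT was 1.22 ± 0.17 for Usp22-KOA and 1.604 ± 0.17 for Usp22-KOB on the log2(TPM + 1) scale. The difference of Usp22-KOA from Usp22-KOB, at -0.38 ± 0.17, did not pass (limma adjusted p = 0.091), although it passed without WT library 1 (adjusted p = 0.0452).

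Tdo2, the tryptophan dioxygenase known from liver, was at or near 0 throughout (chromosome 3, 81957090 to 81976202). It stood at 0.124, 0.181 and 0 TPM across Usp22-KOA, at 0.645, 0.535 and 0.0659 TPM in Usp22-KOB, and at 0, 0 and 0.202 TPM in WT, and the groups overlapped. Of the 3 enzymes that open the indole ring, Ido1 therefore made up most of the mRNA in both knockouts. Its share of their summed TPM was 98.7%, 98.9% and 99.0% in Usp22-KOA, 89.4%, 91.4% and 87.8% in Usp22-KOB, and 71.7%, 74.2% and 31.7% in WT. Summed over the 3 enzymes, the level was 206 to 231 TPM in Usp22-KOA, 30.0 to 40.6 TPM in Usp22-KOB and 0.624 to 2.86 TPM in WT.

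The enzymes that follow kynurenine stayed low. Kmo, kynurenine 3-monooxygenase of the outer mitochondrial membrane (chromosome 1, 175620381 to 175662116), stood at 1.59, 1.46 and 0.911 TPM across Usp22-KOA, 4.87, 2.80 and 1.40 TPM in Usp22-KOB and 0.958, 1.28 and 0.581 TPM in WT. The Usp22-KOB libraries all lay above WT, and those of Usp22-KOA overlapped both other groups. The difference of Usp22-KOA from Usp22-KOB was -0.71 ± 0.31 and did not pass (limma adjusted p = 0.0817). Without Usp22-KOB library 3, the lowest of its group, the difference was -1.04 and passed (adjusted p = 0.00996).

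Kynu encodes kynureninase, which cleaves kynurenine and hydroxykynurenine (chromosome 2, 43555329 to 43682715). Its level was 0.638, 0.463 and 0.4999 TPM across Usp22-KOA, 1.64, 1.43 and 1.15 TPM in Usp22-KOB, and 0.454, 0.550 and 0.4997 TPM in WT. All 3 Usp22-KOB libraries were above the other 6, which lay together. Kynu had a mean under 1 TPM and was not tested. With no filter on low values its difference of Usp22-KOA from Usp22-KOB was -0.65 (limma adjusted p = 0.000979).

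Haao and Qprt close the route to quinolinate and on to the NAD precursor nicotinate mononucleotide. Haao (chromosome 17, 83831156 to 83847963) stood at 1.88, 0.784 and 0.659 TPM across Usp22-KOA, 1.61, 0.481 and 0.284 TPM in Usp22-KOB and 0.0945, 1.41 and 0.145 TPM in WT. Qprt (chromosome 7, 127107114 to 127122226) did not exceed 0.538 TPM in any library and was listed at 0 in 1 Usp22-KOA library and 2 WT libraries. Neither gene separated the groups. Summed over Kmo, Kynu, Haao and Qprt, the level was 2.07 to 4.57 TPM in Usp22-KOA, 3.13 to 8.30 TPM in Usp22-KOB and 1.51 to 3.25 TPM in WT. The sum of the 3 ring-opening enzymes was 45.2 to 103.7 times this sum in Usp22-KOA, 4.84 to 9.60 times in Usp22-KOB and 0.409 to 1.90 times in WT.

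Levels of white blood cell genes varied within groups and are given beside these members. Of 12 macrophage and monocyte markers, summed levels were 1112 to 2072 TPM in Usp22-KOA, 2619 to 4879 TPM in Usp22-KOB and 1234 to 1930 TPM in WT, with 10 of 12 lower and 1 above Usp22-KOB in Usp22-KOA (limma, adjusted p under 0.05). Of all tested genes 24.2% were called lower and 27.5% higher in this comparison. Within Usp22-KOB this sum was 4879, 4635 and 2619 TPM in libraries 1, 2 and 3, where Kmo stood at 4.87, 2.80 and 1.40 TPM and Kynu at 1.64, 1.43 and 1.15 TPM. The macrophage sum was lowest in the library with the lowest Kmo and Kynu, and its part in their levels was not tested. The 10 dendritic cell markers summed to 20.7 to 40.2 TPM in Usp22-KOA, 59.9 to 111 TPM in Usp22-KOB and 15.9 to 32.6 TPM in WT, and 4 of the 6 tested were below Usp22-KOB in Usp22-KOA.

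Markers of macrophages and of T, NK, mast and endothelial cells are given beside Ido1, and their part in its level was not tested. In Usp22-KOA libraries 1, 2 and 3 the 12 T and NK cell markers summed to 112, 84.5 and 49.0 TPM, the macrophage markers to 2072, 1742 and 1112 TPM and the 7 mast cell markers to 2467, 1939 and 1190 TPM. Ido1 stood at 204, 229 and 212 TPM in the same libraries. The sums were lowest in library 3, where Ido1 lay between its values in the other two. In Usp22-KOB the T and NK sum was 71.3, 57.1 and 27.8 TPM and Ido1 35.9, 37.1 and 26.3 TPM, so both were lowest in library 3. In WT libraries 1, 2 and 3 the T and NK sum was 19.65, 19.3 and 10.9 TPM and Ido1 2.05, 0.9997 and 0.198 TPM. Both fell from library 1 to library 3. The macrophage sum there was 1234, 1930 and 1290 TPM. The mast cell sum was 123, 106 and 93.5 TPM in Usp22-KOB libraries 1, 2 and 3, and 182, 167 and 149 TPM in WT. The protease Mcpt4 made up most of the WT sum, at a mean of 160 TPM, and its Usp22-KOB mean was 55.9 TPM. Of the 7 mast cell markers 4 were higher and 1, Mcpt4, was lower in Usp22-KOB than in WT (limma, adjusted p under 0.05), and Tpsb2 averaged 26.6 TPM in Usp22-KOB and 1.72 TPM in WT. Of all tested genes 18.7% were called higher and 18.4% lower in Usp22-KOB than in WT. The 10 endothelial markers summed to 10.9 to 17.5 TPM in Usp22-KOA, 38.3 to 57.7 TPM in Usp22-KOB and 49.2 to 66.2 TPM in WT.

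**Figure D2:**
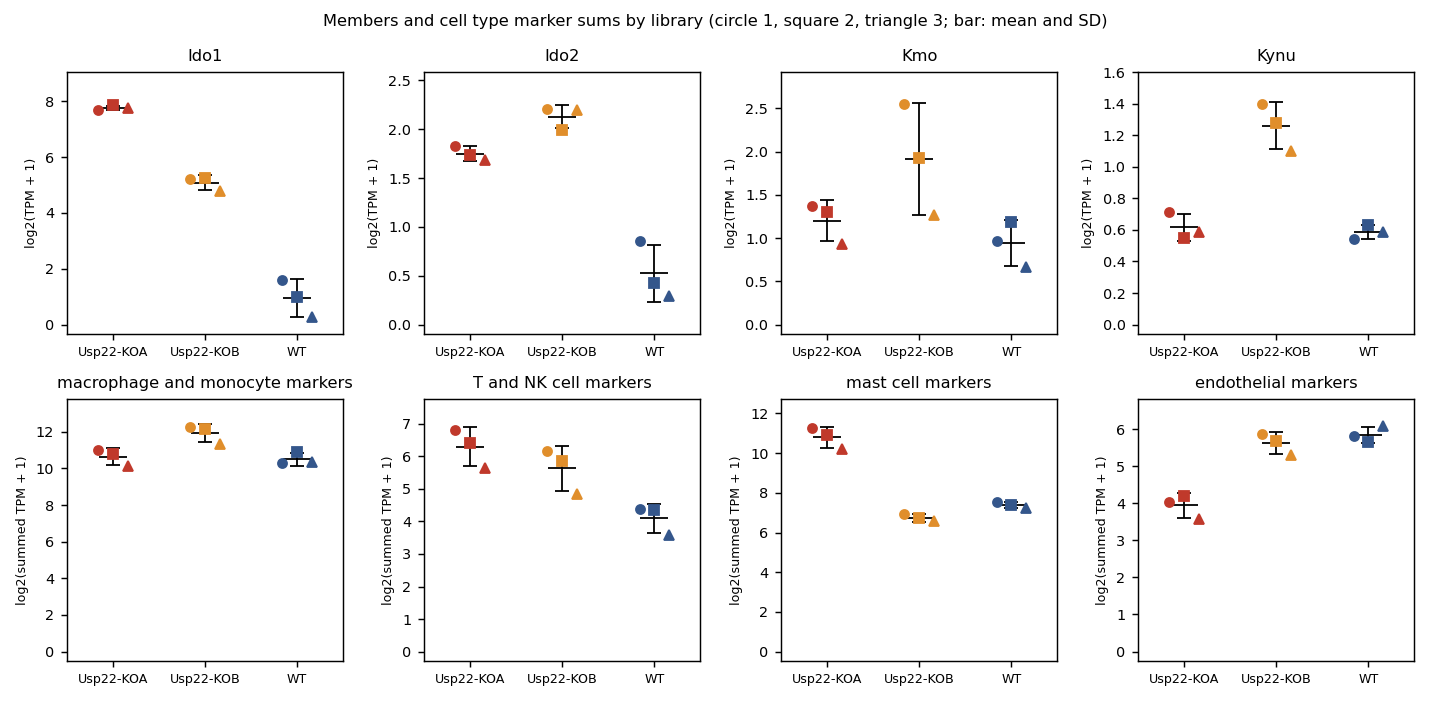
Ido1, Ido2, Kmo and Kynu (upper row, log2(TPM + 1)) and the summed level of 4 marker lists (lower row, log2(summed TPM + 1)) in every library, with Usp22-KOA, Usp22-KOB and WT from left to right. Symbols mark the library number, and black bars are the group mean and SD (n = 3). Within Usp22-KOA, Ido1 runs from 204 to 229 TPM and the T and NK cell sum from 49.0 to 112 TPM. Kmo, Kynu and the macrophage sum are highest in Usp22-KOB.

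Liver and kidney are rich in the enzymes of the later steps, and their markers were looked at for this reason. The 7 hepatocyte markers summed to 98.5 to 194 TPM in Usp22-KOA, 107 to 160 TPM in Usp22-KOB and 180 to 234 TPM in WT, most of it Ttr, the carrier of thyroid hormone and retinol. The defining hepatocyte gene Alb, for serum albumin, did not exceed 1.64 TPM in Usp22-KOA, 0.0444 TPM in Usp22-KOB and 3.55 TPM in WT. Of 6 kidney tubule markers Umod was at 0 in all 9 libraries, and the other 5 held 1 gene with a mean of at least 1 TPM, Lrp2, whose mean was 0.00366 TPM in Usp22-KOA, 0.273 TPM in Usp22-KOB and 11.6 TPM in WT.

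Wars had the same order of groups as Ido1 over a much smaller range (chromosome 12, 108860030 to 108894174). It stood at 131, 123 and 147 TPM across Usp22-KOA, 82.5, 79.9 and 90.0 TPM in Usp22-KOB and 57.3, 54.4 and 53.1 TPM in WT. The groups did not overlap. Means were 134 ± 11.9 TPM in Usp22-KOA, 84.2 ± 5.25 TPM in Usp22-KOB and 54.9 ± 2.15 TPM in WT (SD, n = 3 each), so the ratio to WT was 2.43 for Usp22-KOA and 1.53 for Usp22-KOB. The difference from WT was 1.27 ± 0.07 and 0.61 ± 0.07 on the log2(TPM + 1) scale for Usp22-KOA and Usp22-KOB. Usp22-KOA was above Usp22-KOB by 0.66 ± 0.07 (limma adjusted p = 0.000111).

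Among cytosolic aminoacyl-tRNA synthetases Wars stood at the top of the differences from WT. The choice of members rested on this contrast, so nothing is read from the place of Wars. The other 19 had differences from -0.62 (Nars) to 0.82 (Tars) in Usp22-KOA and from -0.28 (Sars) to 0.21 (Aars) in Usp22-KOB, all below that of Wars, with medians of 0.076 for Usp22-KOA and 0.047 for Usp22-KOB. By level, Wars was place 2 of the 20 synthetases in each Usp22-KOA library, place 4 or 5 in Usp22-KOB and place 13 or 14 in WT. Between the knockouts Tars, the threonyl-tRNA synthetase, differed by more than Wars.

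With 3 subunits that hold the synthetase complex together (Aimp1, Aimp2 and Eef1e1), the list had 22 genes. In both knockouts averaged against WT, 9 rose and 5 fell, where 25.9% of all tested genes were called higher and 24.1% lower, 50.0% in all. For Usp22-KOA against WT 56.3% of tested genes were called (29.4% higher, 26.9% lower), and for Usp22-KOB against WT 37.1% (18.7% higher, 18.4% lower). The median log2 difference of the list was 0.077, against 0.009 for all tested genes. The alanyl-, valyl- and threonyl-tRNA synthetases Aars, Vars and Tars rose by 0.37 ± 0.05, 0.33 ± 0.05 and 0.31 ± 0.06, and the asparaginyl-tRNA synthetase Nars fell by 0.40 ± 0.05 (limma, Benjamini-Hochberg adjusted p from 0.000235 to 0.00206). Vars differed from WT by 0.56 ± 0.06 for Usp22-KOA and 0.107 ± 0.06 for Usp22-KOB (limma adjusted p = 4.72e-05 and 0.19). Tars stood at 110 ± 7.31 TPM in Usp22-KOA, 53.5 ± 2.52 TPM in Usp22-KOB and 61.7 ± 3.35 TPM in WT, with a difference from WT of 0.82 ± 0.07 for Usp22-KOA and -0.20 ± 0.07 for Usp22-KOB.

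Of 17 mitochondrial synthetases, 1 rose and 6 fell in the mean of both knockouts (all tested genes: 25.9% and 24.1%), with a median of -0.082. Wars2, the mitochondrial tryptophanyl-tRNA synthetase, fell by 0.39 ± 0.12 (limma adjusted p = 0.0209), to 6.71 ± 1.11 TPM in Usp22-KOA and to 6.41 ± 0.560 TPM in Usp22-KOB against 8.91 ± 1.28 TPM in WT. The call ended without WT library 1 (log2 -0.29, adjusted p = 0.0999) and without WT library 2 (adjusted p = 0.0517). Tars2 fell by 0.43 ± 0.06 and Cars2 rose by 0.41 ± 0.07 (limma adjusted p = 0.00049 and 0.00127).

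**Figure D3:**
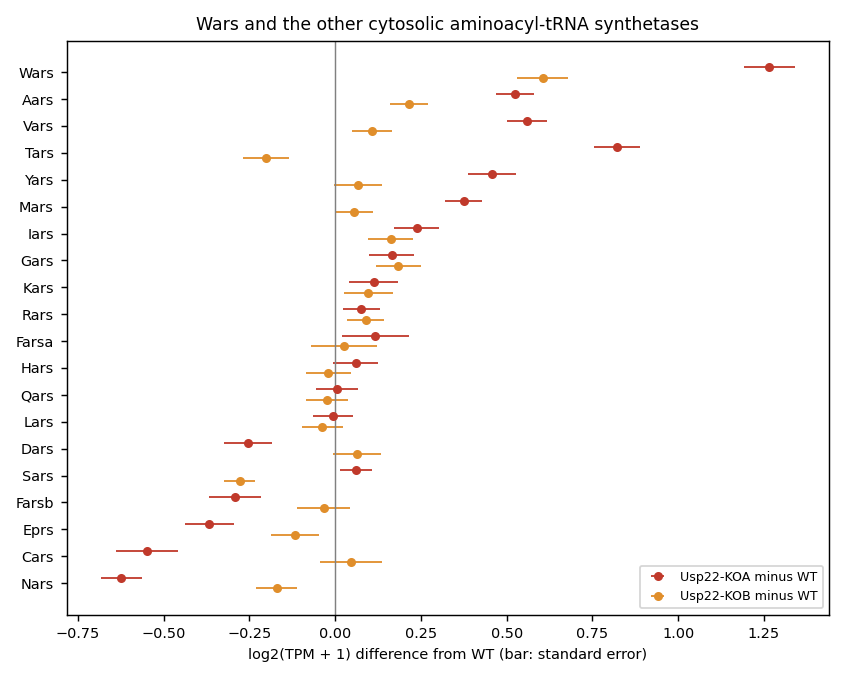
Difference from WT on the log2(TPM + 1) scale for Wars and the other 19 cytosolic aminoacyl-tRNA synthetases, with Usp22-KOA above Usp22-KOB in each row and bars for the standard error. Wars has the highest difference in each knockout, 1.27 for Usp22-KOA and 0.61 for Usp22-KOB. The choice of members rested on this contrast, so nothing is read from its place. Tars lies at 0.82 for Usp22-KOA and -0.20 for Usp22-KOB. Both knockouts are set against the same WT libraries.

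Ahr, the receptor for kynurenine and many foreign aromatic compounds, ran in the opposite order to Ido1 (chromosome 12, 35497974 to 35535038). It stood at 5.83, 5.83 and 5.18 TPM across Usp22-KOA, 11.3, 11.9 and 12.5 TPM in Usp22-KOB and 15.2, 16.5 and 14.4 TPM in WT. The 3 groups did not overlap, and the Usp22-KOA libraries were the lowest. Means were 5.61 ± 0.374 TPM in Usp22-KOA, 11.9 ± 0.573 TPM in Usp22-KOB and 15.4 ± 1.09 TPM in WT (SD, n = 3 each). The difference from WT was -1.31 ± 0.08 for Usp22-KOA and -0.34 ± 0.08 for Usp22-KOB, and Usp22-KOA differed from Usp22-KOB by -0.96 ± 0.08 (limma adjusted p = 2.47e-05).

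In all, 3 members (Ido1, Ido2 and Wars) were higher and 1 (Ahr) was lower in all 6 knockout libraries than in all 3 WT libraries. Among tested genes 29.7% had all 6 knockout values apart from the 3 WT values (15.0% higher, 14.7% lower). Since the choice of members rested on this contrast, nothing is read from the count.

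Of the 7 partners and chaperones of AHR, 6 were tested, and in both knockouts averaged against WT 1 rose and 2 fell (all tested genes: 25.9% and 24.1%), with a median of 0.019. Arnt2, a neuronal relative of the AHR partner ARNT, fell by 1.81 ± 0.13 (limma adjusted p = 7.26e-06), to 0.115 ± 0.0354 TPM in Usp22-KOA and to 2.60 ± 0.376 TPM in Usp22-KOB against 6.07 ± 1.02 TPM in WT. Arnt itself fell by 0.33 ± 0.08 and Ptges3, the p23 co-chaperone, rose by 0.25 ± 0.06 (adjusted p = 0.00744 and 0.00748). Ptges3 differed from WT by 0.415 ± 0.07 for Usp22-KOA and 0.08 ± 0.07 for Usp22-KOB (limma adjusted p = 0.000719 and 0.407). Ahrr, the repressor of AHR and itself one of its targets, had a mean under 1 TPM and was not tested.

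Genes known to be driven by AHR were mixed, and those that differed most between the knockouts did so in opposite directions. Of 9 such genes 7 were tested, and in both knockouts averaged against WT 3 rose and 0 fell at this threshold (all tested genes: 25.9% and 24.1%), with a median of 0.426. Cyp1a1 and Cyp1a2, the classical targets, were listed at 0 in all 9 libraries. Ugt1a6a and Aldh3a1, enzymes that clear aromatic compounds and aldehydes, rose by 0.92 ± 0.09 and 0.43 ± 0.06 (limma adjusted p = 4.68e-05 and 0.000516). Aldh3a1 differed from WT by 0.67 ± 0.07 for Usp22-KOA and 0.185 ± 0.07 for Usp22-KOB (limma adjusted p = 5.6e-05 and 0.0735). Gpr35, a receptor reported to bind kynurenic acid, rose by 0.74 ± 0.23 (adjusted p = 0.0238), but the call ended without WT library 3 (log2 0.60, adjusted p = 0.101). It stood at 4.30 ± 1.65 TPM in Usp22-KOA, 11.4 ± 2.74 TPM in Usp22-KOB and 3.76 ± 0.769 TPM in WT.

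A pair of these targets differed most between the knockouts. Cyp1b1, a cytochrome P450, stood at 2.94, 4.45 and 2.07 TPM across Usp22-KOA, 14.6, 14.1 and 17.5 TPM in Usp22-KOB and 8.86, 11 and 10.2 TPM in WT. Nqo1, a quinone reductase also driven by NRF2, stood at 40.8, 32.7 and 51.4 TPM across Usp22-KOA, 5.56, 4.84 and 5.54 TPM in Usp22-KOB and 17.5, 15.8 and 15.6 TPM in WT. Usp22-KOA differed from Usp22-KOB by -2.02 ± 0.19 for Cyp1b1 and by 2.73 ± 0.14 for Nqo1 (limma adjusted p = 4.26e-05 and 1.52e-06), and the mean of both knockouts passed against WT for neither gene (adjusted p = 0.0565 for Cyp1b1 and 0.585 for Nqo1). Cyp1b1 passed without Usp22-KOA library 2 (log2 -0.54, adjusted p = 0.00787) and with array weights (log2 -0.40, adjusted p = 0.039). The 8 fibroblast markers, among cells known for Cyp1b1, summed to 38.2 to 49.97 TPM in Usp22-KOA, 557 to 832 TPM in Usp22-KOB and 369 to 671 TPM in WT, and their part in its level was not tested.

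**Figure D4:**
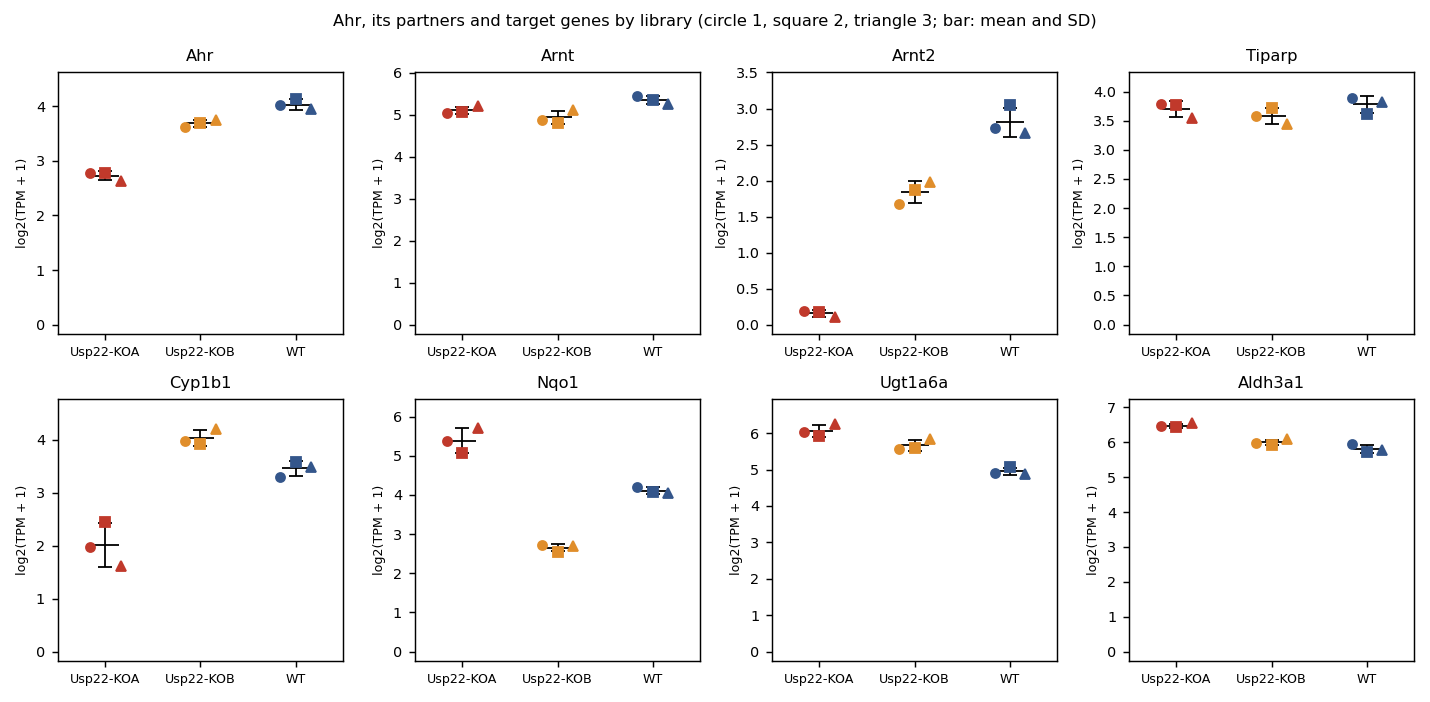
Ahr, its partners Arnt and Arnt2 and the targets Tiparp, Cyp1b1, Nqo1, Ugt1a6a and Aldh3a1 in every library, as log2(TPM + 1), with Usp22-KOA, Usp22-KOB and WT from left to right. Symbols mark the library number and black bars the group mean and SD (n = 3). Ahr and Arnt2 are lowest in Usp22-KOA and highest in WT, at mean Ahr levels of 5.61, 11.9 and 15.4 TPM in Usp22-KOA, Usp22-KOB and WT, whereas Cyp1b1 and Nqo1 place the knockouts in opposite orders.

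The signals known to induce Ido1 were examined next. Of 13 genes of interferon-gamma signalling 12 were tested, and 7 rose and 1 fell in the mean of both knockouts (all tested genes: 25.9% and 24.1%), with a median of 0.33. Irf1, a transcription factor induced by interferon-gamma, rose by 0.97 ± 0.08, and Socs1, the feedback inhibitor, by 1.06 ± 0.13 (limma, Benjamini-Hochberg adjusted p = 1.4e-05 and 0.000201). Irf1 stood at 134 ± 2.60 TPM in Usp22-KOA, 94.2 ± 3.16 TPM in Usp22-KOB and 57.1 ± 8.34 TPM in WT. The receptor subunit Ifngr2 rose by 0.50 ± 0.06 (adjusted p = 0.00012) and was 0.76 ± 0.07 above Usp22-KOB in Usp22-KOA (adjusted p = 2.39e-05). Its difference from WT was 0.88 ± 0.07 for Usp22-KOA and 0.12 ± 0.07 for Usp22-KOB (adjusted p = 6.18e-06 and 0.197). The kinase Jak2 was below Usp22-KOB in Usp22-KOA, with a log2 difference of -0.47 ± 0.06 (adjusted p = 0.000385).

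Ifng, the cytokine itself and a product of T and NK cells, had too low a mean to be tested. It stood at 2.45, 2.30 and 1.62 TPM across Usp22-KOA, 1.03, 0.293 and 0.0962 TPM in Usp22-KOB and 0, 0.0844 and 0 TPM in WT. The 3 groups did not overlap, in the same order as those of Ido1, but Usp22-KOB and WT were parted only by 0.0962 against 0.0844 TPM. Values this low carry an unknown counting error. Among tested genes the knockouts lay apart from each other for 58.3%, and Usp22-KOB from WT for 49.1%.

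Of 12 other known regulators of Ido1, 11 were tested, and 4 rose and 0 fell in the mean of both knockouts (all tested genes: 25.9% and 24.1%), with a median of 0.264. Taken alone, Usp22-KOA had 2 higher and 1 lower than WT (all tested genes: 29.4% and 26.9%). Usp22-KOB alone had 7 higher and 0 lower (all tested genes: 18.7% and 18.4%). In the mean of both, Stat3, which acts downstream of interleukin-6, rose by 0.38 ± 0.04 (limma adjusted p = 5.16e-05). Its level was 117 ± 2.69 TPM in Usp22-KOA, 82.5 ± 1.56 TPM in Usp22-KOB and 75.05 ± 1.86 TPM in WT. Ctla4, the inhibitory receptor of T cells whose ligation of CD80 and CD86 induces Ido1 in dendritic cells, rose by 1.27 ± 0.21 (adjusted p = 0.000952), at 3.23 ± 0.582 TPM in Usp22-KOA, 2.27 ± 1.14 TPM in Usp22-KOB and 0.507 ± 0.0408 TPM in WT. Ctla4 passed the filter on mean level only through the knockouts. Of the 11 tested T and NK cell markers 8 were higher and 0 lower in the same comparison (all tested genes: 25.9% and 24.1%). Their median was 1.313, and the part of T cells in the level of Ctla4 was not tested. Bin1, a gene known to restrain Ido1, rose by 0.26 ± 0.08 in the mean of both knockouts (adjusted p = 0.0203), but not without WT library 2 or 3 (adjusted p = 0.0578 and 0.0827) or under quantile normalization (log2 0.20, adjusted p = 0.0796). Bin1 differed from WT by 0.09 ± 0.09 for Usp22-KOA and 0.44 ± 0.09 for Usp22-KOB (limma adjusted p = 0.413 and 0.00551). Tgfb1, which sustains IDO1 in dendritic cells, was below Usp22-KOB in Usp22-KOA, with a log2 difference of -1.28 ± 0.12 (adjusted p = 3.08e-05), at 58.6 ± 9.56 TPM in Usp22-KOA and at 143 ± 15.4 TPM in Usp22-KOB against 97.2 ± 1.74 TPM in WT.

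Carriers bring tryptophan into the cell and exchange it for kynurenine. Of 9 carriers 6 were tested, of which 3 rose and 0 fell in the mean of both knockouts (all tested genes: 25.9% and 24.1%), with a median of 0.437. Slc7a5, the large neutral amino acid carrier LAT1, rose by 0.59 ± 0.07 and its partner chain Slc3a2 by 0.38 ± 0.05 (limma adjusted p = 0.000117 and 0.000377). Slc7a5 stood at 64.1 ± 7.46 TPM in Usp22-KOA, 55.2 ± 1.06 TPM in Usp22-KOB and 39.0 ± 0.290 TPM in WT. The aromatic amino acid carrier Slc16a10 rose by 0.49 ± 0.11 (adjusted p = 0.0041), with a difference from WT of 0.70 ± 0.12 for Usp22-KOA and 0.28 ± 0.12 for Usp22-KOB (adjusted p = 0.000942 and 0.102). Slc43a2 and Slc1a5, carriers of large neutral amino acids and of glutamine, were below Usp22-KOB in Usp22-KOA, with log2 differences of -1.35 ± 0.18 and -0.85 ± 0.13 (adjusted p = 0.000324 and 0.000574).

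A cell that runs short of an amino acid senses uncharged tRNA through the kinase GCN2. Of 10 genes of this response, all tested, 5 rose and 1 fell in the mean of both knockouts (all tested genes: 25.9% and 24.1%), with a median of 0.194. Taken alone, Usp22-KOA had 6 higher and 2 lower than WT (all tested genes: 29.4% and 26.9%), with a median of 0.544. Usp22-KOB alone had 1 higher and 1 lower (all tested genes: 18.7% and 18.4%), with a median of 0.097. In the mean of both, the asparagine synthetase Asns rose by 0.85 ± 0.10 and Impact, which restrains GCN2, by 0.74 ± 0.10 (limma adjusted p = 0.00016 and 0.000328). Against WT, Asns differed by 1.53 ± 0.12 for Usp22-KOA and 0.17 ± 0.12 for Usp22-KOB, and Impact by 1.35 ± 0.12 and 0.12 ± 0.12 (adjusted p = 7.23e-06 and 0.292 for Asns, 1.33e-05 and 0.451 for Impact). In Usp22-KOA Asns stood at 76.8 ± 4.11 TPM and Impact at 48.6 ± 7.11 TPM. Usp22-KOB held 29.3 ± 0.249 TPM of Asns and 20.0 ± 1.27 TPM of Impact, and WT 26.2 ± 5.34 and 18.3 ± 2.13 TPM. In the mean of both knockouts Eif2ak4, the gene of GCN2, fell by 0.35 ± 0.08 and the stress-induced Sesn2 rose by 0.50 ± 0.12 (adjusted p = 0.00663 and 0.00784). Both passed for Usp22-KOA against WT (limma adjusted p = 0.00254 and 0.00494) and neither for Usp22-KOB (0.0786 and 0.0538). Gcn1l1, which activates GCN2 on the ribosome, was 1.02 ± 0.07 above Usp22-KOB in Usp22-KOA (adjusted p = 8.11e-06), and Asns 1.36 ± 0.12 higher (adjusted p = 2.41e-05).

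In the list of 6 further enzymes of the kynurenine route, 5 were tested and 1 rose (all tested genes: 25.9%), Kyat1, a transaminase that makes kynurenic acid, by 0.58 ± 0.11 (limma adjusted p = 0.00179). It was 1.07 ± 0.12 above Usp22-KOB in Usp22-KOA (adjusted p = 0.00012), at 24.4 ± 3.69 TPM in Usp22-KOA and at 11.03 ± 1.21 TPM in Usp22-KOB against 10.7 ± 1.01 TPM in WT. Taken alone, Usp22-KOA had 2 of the 5 higher and 1 lower than WT (all tested genes: 29.4% and 26.9%). Usp22-KOB alone had 0 higher and 0 lower (all tested genes: 18.7% and 18.4%). Afmid, the formamidase that releases kynurenine, did not pass in the mean of both knockouts (log2 0.31 ± 0.13, adjusted p = 0.0701). Afmid was 0.41 ± 0.15 above Usp22-KOB in Usp22-KOA (adjusted p = 0.0402). That call ended without WT library 3, Usp22-KOA library 1 or 3, or Usp22-KOB library 1 or 2 (adjusted p = 0.0544, 0.0932, 0.13, 0.102 and 0.135), and the first of these tests passed without WT library 1 and without Usp22-KOA library 2 (adjusted p = 0.0446 and 0.0362). The test against WT also passed with median-of-ratios scaling (adjusted p = 0.0416), and the call between knockouts also ended with no filter on low values and with only the groups compared (adjusted p = 0.0614 and 0.0543).

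Of 9 genes of the serotonin and indole branches 5 were tested, with 2 higher and 1 lower in the mean of both knockouts (all tested genes: 25.9% and 24.1%) and a median of -0.117. Tph1, the tryptophan hydroxylase of serotonin synthesis, rose by 1.57 ± 0.29 (limma adjusted p = 0.00192). It stood at 18.1, 9.22 and 8.64 TPM across Usp22-KOA, 0.806, 1.29 and 0.827 TPM in Usp22-KOB and 0.458, 1.61 and 0.187 TPM in WT. With means of 0.976 TPM in Usp22-KOB and 0.751 TPM in WT, Tph1 passed the filter on mean level only through Usp22-KOA. The difference from WT was 2.90 ± 0.34 for Usp22-KOA and 0.25 ± 0.34 for Usp22-KOB (adjusted p = 8.53e-05 and 0.599). Mast cells make serotonin, and their 7 markers summed to 2467, 1939 and 1190 TPM in the same Usp22-KOA libraries, a part in Tph1 that was not tested. Ddc, the decarboxylase of the next step, rose by 0.49 ± 0.11 (adjusted p = 0.00582), and was 1.08 ± 0.13 above Usp22-KOB in Usp22-KOA (adjusted p = 0.000154). Its difference from WT was 1.03 ± 0.13 for Usp22-KOA and -0.05 ± 0.13 for Usp22-KOB (adjusted p = 0.000137 and 0.79). Maob, a monoamine oxidase, fell by 1.604 ± 0.15 (adjusted p = 4.2e-05), at 10.5, 11.2 and 16.5 TPM across Usp22-KOA, 0.296, 0.0423 and 0.375 TPM in Usp22-KOB and 12.0, 12.0 and 10.2 TPM in WT, with a difference from WT of 0.12 ± 0.18 for Usp22-KOA and -3.33 ± 0.18 for Usp22-KOB (adjusted p = 0.574 and 3.48e-06). It was 3.46 ± 0.18 above Usp22-KOB in Usp22-KOA (adjusted p = 1.39e-06).

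Of 9 genes that make or use NAD precursors 7 were tested, with 2 higher and 2 lower in the mean of both knockouts (all tested genes: 25.9% and 24.1%) and a median of -0.088. Nampt, the enzyme that salvages nicotinamide, rose by 0.61 ± 0.07 (limma adjusted p = 0.000138), to 26.9 ± 1.11 TPM in Usp22-KOA and to 30.0 ± 3.02 TPM in Usp22-KOB against 18.2 ± 1.01 TPM in WT. Nnmt, which methylates nicotinamide and removes it from salvage, rose by 2.49 ± 0.24 (adjusted p = 4.48e-05). Its level was 40.3, 48.2 and 40.4 TPM across Usp22-KOA, 1.92, 3.92 and 1.22 TPM in Usp22-KOB and 0.597, 1.49 and 1.33 TPM in WT, and the Usp22-KOB and WT libraries overlapped. Nnmt was 3.79 ± 0.28 above Usp22-KOB in Usp22-KOA (adjusted p = 9.67e-06), and Naprt, which starts NAD synthesis from nicotinate, 0.71 ± 0.11 higher (adjusted p = 0.000834). Nmnat3 fell by 0.45 ± 0.13 in the mean of both knockouts (adjusted p = 0.0208), but not without WT library 1 or 2 (adjusted p = 0.0748 and 0.0726). Its difference from WT passed for Usp22-KOA and not for Usp22-KOB (limma adjusted p = 0.0104 and 0.14).

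**Figure D5:**
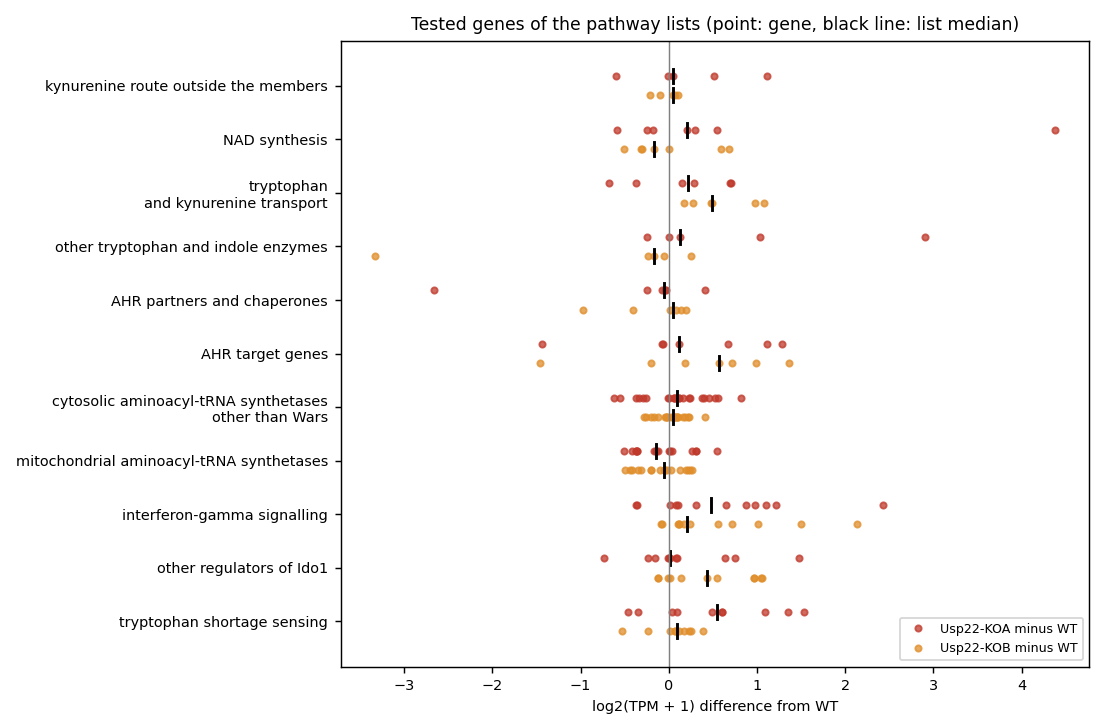
Difference from WT on the log2(TPM + 1) scale of each tested gene of 11 lists around tryptophan use, with Usp22-KOA above Usp22-KOB in each row and a black line at each list median. The medians lie between -0.17 and 0.575 in the row of each knockout, and the far points include Nnmt, Tph1 and Arnt2 in Usp22-KOA and Maob in Usp22-KOB. Both knockouts are set against the same WT libraries.

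Over these 11 lists 108 of 123 genes were tested, and in both knockouts averaged against WT 38 rose and 18 fell. Of all tested genes 25.9% were called higher and 24.1% lower in that comparison. The 18 became 8 without WT library 1 and 11 without WT library 2. Taken alone, Usp22-KOA had 39 higher and 24 lower than WT (all tested genes: 29.4% and 26.9%). Usp22-KOB alone had 28 higher and 12 lower (all tested genes: 18.7% and 18.4%). Between the knockouts 34 were higher and 26 lower in Usp22-KOA, where 27.5% of all tested genes were called higher and 24.2% lower.

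The genes most like each member were ranked over the 9 libraries by the root mean square difference of log2(TPM + 1), after each gene's own WT mean was subtracted, with 10400 candidate genes that averaged 5 TPM or more. For Ido1 these were Tpsb2 (0.77), Cxcl9 (0.99), Iigp1 (1.04), Ly6c1 (1.06), Tgtp2 (1.06) and Cma1 (1.14). The distance rests on differences from WT, on which the members were chosen, so it favors other genes with large rises. Tpsb2, Cxcl9, Tgtp2 and Cma1 had WT means of 1.72, 3.30, 3.14 and 1.53 TPM. These 4 passed the filter of 5 TPM only through the knockouts. Tpsb2 and Cma1 are mast cell proteases, Cxcl9 a T cell chemokine, Iigp1 and Tgtp2 interferon-inducible GTPases and Ly6c1 a surface protein. Ly6c1 stood at 1042 ± 28.4 TPM in Usp22-KOA, 138 ± 15.7 TPM in Usp22-KOB and 19.3 ± 3.37 TPM in WT. Within Usp22-KOA, Tpsb2 varied from 337 to 741 TPM, a wider range than that of Ido1. For Wars the closest were Tapbp (0.091), which helps load peptide on MHC class I, Cltb (0.095) and Tigar (0.096). For Ahr they were Dmac2 (0.078), Tcf4 (0.083) and Plekhh2 (0.088). These distances rest on the size of the differences from WT in 9 libraries, not on shape alone, and describe no more. Those for Ido1, of 0.77 or more, were larger than those for Wars and Ahr, so no gene lay as close to Ido1. Usp22-KOA differed from Usp22-KOB by 2.68 for Ido1. For Tpsb2, Cxcl9, Iigp1, Ly6c1, Tgtp2 and Cma1 this log2 difference was 4.31, 0.57, 0.79, 2.91, 1.26 and 5.1.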

How the data were processed

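Poly(A) RNA of 9 samples was measured. The values that the authors deposited are TPM per gene, in 1 table. Salmon, DESeq2 and the build mm10 are named, per the submitters' processing notes, without roles, versions or annotation. Each of the 9 columns matched 1 sample by its label. Genes averaging 1 TPM or more were kept (13843 tested, 10650 set aside) and log2(TPM + 1) of the deposited TPM was fitted with limma (lmFit, contrasts.fit and eBayes with a trend) over the 9 samples together, with a mean per group. The 4 comparisons set both knockouts, Usp22-KOA or Usp22-KOB against WT and the knockouts against each other. The fit was tested on simulated data. The members and lists were chosen with earlier results of these data known. Lists are described by counts and medians, and some genes that the naming rule picks are not reported here. The text names the members, from every list at most 4 genes ranked by adjusted p for both knockouts and at most 2 ranked by it between knockouts, and the most alike genes (6 for Ido1, 3 for Wars and Ahr, predicted models left out). Ifng, Epcam, Alb, Ttr, Mcpt4, Umod, Lrp2, Sars, Cyp1a1, Cyp1a2, Ahrr and Tiparp were named beyond this rule after their values were seen. Coordinates are from GENCODE M21 on GRCm38, the assembly also called mm10. Alternatives were pseudocounts of 0.1 and 5, other filters, quantile and median-of-ratios scaling, no trend, array weights, a replicate block, only the groups compared, and each sample left out. The fits ran in limma 3.58.1 under R 4.3.3. Tables and plots were made with pandas 2.3.3, matplotlib 3.10.9 and numpy 2.4.6 under Python 3.11.15.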

Additional observations from a re-analysis of the deposited data

Results flagged for a closer look

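The values here are log2(TPM + 1) differences of Usp22-KOA minus Usp22-KOB, noted because the level differed between Usp22-KOA and Usp22-KOB (limma, adjusted p under 0.05), as it did for 51.7% of tested genes. Among the members these were Ido1 (2.68), Wars (0.66) and Ahr (-0.96).

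In the enzymes of tryptophan and NAD they were Afmid (0.41), Kyat1 (1.07), Ddc (1.08), Maob (3.46), Naprt (0.71) and Nnmt (3.79). Among carriers they were Slc1a5 (-0.85) and Slc43a2 (-1.35), and around AHR they were Arnt2 (-1.69), Cyp1b1 (-2.02) and Nqo1 (2.73). Among synthetases they were Tars (1.02), Vars (0.45), Nars2 (-0.46) and Sars2 (-0.54).

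Among regulators of Ido1 and the response to tryptophan shortage they were Ifngr2 (0.76), Jak2 (-0.47), Stat3 (0.50), Tgfb1 (-1.28), Gcn1l1 (1.02) and Asns (1.36). No group has more than 3 samples, so no library was tested as an outlier.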

How the results depend on the processing

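With a pseudocount of 0.1 the log2 difference of Ido1 from WT was 6.56 in the mean of both knockouts, 7.91 in Usp22-KOA and 5.21 in Usp22-KOB, and with a pseudocount of 5 it was 3.92, 5.19 and 2.65, a change that the WT level near 1 TPM and the pseudocount bring by construction. The calls of Ido1, Wars and Ahr between the knockouts held under every alternative run. Ido2 also passed there with a pseudocount of 5 and with only the groups compared (adjusted p = 0.0338 and 0.0493), and Kmo with array weights (0.0131). Of 9 same-numbered pairs, 2 had deviations that correlated above 0.1 (range -0.125 to 0.276), both between the knockouts. Between the knockouts the values were 0.187, 0.0765 and 0.276 for numbers 1, 2 and 3. Unlike-numbered knockout pairs had -0.235 to 0.104. Whether replicate numbers pair the knockout samples is thus not settled. With the replicate number as a block, 4 members were called between the knockouts in place of 3, Kmo being added (adjusted p = 0.0312), Afmid passed against WT (0.0354), and 41 list genes were higher and 14 lower than WT. Leaving out each library gave 8 to 19 list genes lower than WT. Not called in the main setting, Got2 had log2 differences of -0.0592 to 0.0184 with each library left out, turning in direction without WT library 2, as Hsp90ab1 did under quantile normalization (-0.0158). Depth is unknown in TPM, so values under 1 TPM carry an unknown counting error.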
